A study of Mus musculus with 9 samples.

Results

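The enzymes that make serine and pass its side-chain carbon to folate were examined in the E16.5 mouse lens with and without the transcription factor ATF4. They comprise 10 genes of the 55416 counted, taken by symbol. *Phgdh*, *Psat1* and *Psph* encode the serine synthesis pathway, *Shmt1*, *Mthfd1* and *Aldh1l1* the cytosolic arm of folate metabolism, and *Shmt2*, *Mthfd2*, *Mthfd1l* and *Aldh1l2* its mitochondrial arm. RNA of whole lenses was sequenced from 4 *Atf4* null and 5 wildtype embryos, with 1 library for the single pair of lenses of each embryo. The null embryos were homozygous for the tm1Tow allele of *Atf4*, in which a neomycin phosphotransferase cassette takes the place of the coding sequence in every tissue. They and their wildtype littermates came from intercrosses of heterozygous mice on a mixed C57Bl/6/129 background. The 129 strain carries a deletion in *Bfsp2* that may affect the lens in either genotype, and the mice were not explicitly typed for it. The paper adds that its RNA sequencing points to *Bfsp2* mRNA in these lenses. The question was which of these enzymes change in transcript level without ATF4, and whether the cytosolic and mitochondrial arms change alike.

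Serine is made from a glycolytic intermediate by PHGDH, PSAT1 and PSPH in turn. The serine hydroxymethyltransferases then split it into glycine and a folate-bound carbon unit, SHMT1 in the cytosol and SHMT2 in mitochondria. In mitochondria the unit is oxidized by MTHFD2 and released as formate by MTHFD1L, and in the cytosol MTHFD1 joins formate back to folate for purine, thymidylate and methionine synthesis. ALDH1L1 and ALDH1L2 oxidize the formyl unit to CO2 in the cytosol and in mitochondria, respectively, with production of NADPH. ATF4 is the main effector of the integrated stress response and is known in other cells as an activator of several of these genes, through sites with the core letters TGATGNAA at which it binds as a dimer with C/EBP proteins.

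The sequence around the start of each gene was searched on both strands for TGATGNAA, for its common form TGATGCAA, and for the E-box CACGTG. RefSeq promoter sequences (250 bases before to 50 after the start) were given for 9 of the 10 genes, *Aldh1l2* having none, and none of the 9 held any of these motifs. Among all 32851 such promoters 3.97% held TGATGNAA, 0.895% TGATGCAA and 7.15% CACGTG. A window of 1000 bases either side of the annotated start in GRCm39, chosen after that result, held TGATGNAA in 5 of the 10 genes and TGATGCAA in 4, against 22.0% and 4.76% of 21770 protein-coding genes. The matches are printed because the same letters recur in intron 1 of the genes of the mitochondrial arm and in *Phgdh*. Each is given with 30 bases in all, read 5′ to 3′ on the strand that carries the motif, with the motif in capitals.

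*Phgdh*, chr3:98246524-98246553, minus strand, 764 bases after the start: cgccttttgtcTGATGCAAgaccttggcgc
*Shmt2*, chr10:127357815-127357844, minus strand, 488 bases after the start: agctatggagaTGATGCAAccgagcctcag
*Shmt2*, chr10:127357793-127357822, plus strand, 510 bases after the start: ggacccttgcgTGATGAAAgtactgaggct
*Mthfd2*, chr6:83294151-83294180, minus strand, 435 bases after the start: ttgctgcagtcTGATGAAAtctgtgagccg
*Mthfd1l*, chr10:3923748-3923777, plus strand, 687 bases after the start: gcctccggctcTGATGCAAccgcgccgggc
*Aldh1l2*, chr10:83369248-83369277, plus strand, 739 bases after the start: tagaagtgatcTGATGCAAtcccacgtctg

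All 6 matches lay in intron 1, between 435 and 764 bases after the start, and none lay before it. The matches of *Shmt2* face each other on opposite strands and those of *Shmt2* and *Aldh1l2* on the plus strand run against their genes, while the others run with theirs. The 4 genes of the mitochondrial arm each held at least 1 match, as did *Phgdh*. *Psat1*, *Psph*, *Shmt1*, *Mthfd1* and *Aldh1l1* held none in this window, which says only that these letters are not in it. The E-box CACGTG was found in 6 of the 10 genes (27.9% of protein-coding genes). These were *Shmt1* and *Mthfd1*, within exon 1, *Shmt2* and *Mthfd2*, in intron 1, *Mthfd1l*, in intron 1 and before the start, and *Aldh1l2*, 47 bases before the start. No measure of binding was made in these libraries, and a match is a description of the sequence.

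**Figure D1:**
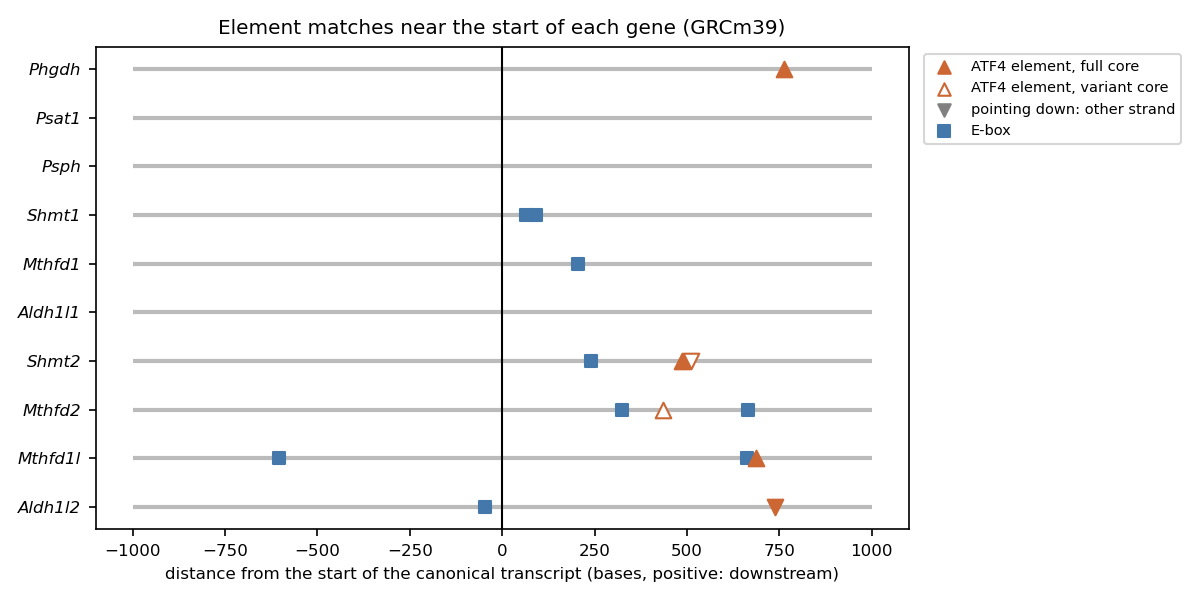
Positions of the ATF4 element core (TGATGNAA) and of the E-box relative to the annotated start of each of the 10 genes, within 1000 bases either side (horizontal axis, bases). The core lies between 435 and 764 bases after the start in *Phgdh* and the 4 mitochondrial genes and is not found in the other 5.

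Between 7440807 and 8906996 reads per library were counted on genes. *Atf4* itself was at 119 to 155 CPM in the wildtype libraries and at 0.582 to 10.6 CPM in the null libraries, and all labels fit this order. CPM are counts scaled to a common library size with TMM factors, and a gene is called where its adjusted p is below 0.05 in edgeR's quasi-likelihood test over 14903 genes. Wildtype replicate 5 stood apart, with 21537 CPM over 10 markers of skeletal muscle and mesenchyme. The other wildtype libraries had 48.7 to 117 CPM, and the null libraries lay above these at 226 to 546 CPM. Of these markers 8 were tested and none was called, in a test whose wildtype group holds replicate 5. The 6 lens fiber markers summed to 38175 CPM in wildtype replicate 5 and to 64726 to 68884 in the other wildtype libraries. The null libraries ran from 28319 to 68109 CPM. Of these markers 5 were tested and 2 were called lower. *Lim2* was at 0 in every library, and whether its RNA was absent or not counted cannot be told from these values. The 4 lens epithelium markers summed to 622 CPM in wildtype replicate 5 and to 946 to 975 in the other wildtype libraries. In null lenses they summed to 448 to 617 CPM, with 3 called lower. Retina and glia markers (9 genes, 3 called higher) summed to 139 to 227 CPM in wildtype and 211 to 653 in null lenses, and blood markers (6 genes, 1 called lower) to 224 to 734 and 179 to 244 CPM. None was called among 8 markers of S phase and mitosis (839 to 1000.3 CPM in wildtype, 453 to 1442 in null lenses) or 6 of vessels and macrophages (277 to 455 and 149 to 327 CPM). The part of these shifts in the enzyme values was not tested.

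Of the 10 enzymes, all passed the filter on low counts, and 5 fell in *Atf4* null lenses: *Phgdh*, *Psat1*, *Aldh1l1*, *Mthfd2* and *Mthfd1l*. Each of these was also called without wildtype replicate 5, and no other was. Among all genes tested 5.9% were called, 3.67% lower and 2.23% higher. None of the 10 rose by edgeR, at an unadjusted p below 0.05 as well (9.31% of all genes tested were higher at that level), or by DESeq2. The median log2 fold change of the 10 was -1.19, against 0.00 over all genes tested. The null libraries all lay below every wildtype library for 6 of the 10, the 5 named and *Shmt2*, while 5.58% of all genes tested had this order, 4.65% the reverse order, and 10.2% either. An exact permutation test of genotype on mean log2 CPM, two-sided, gave p = 0.0079 for *Phgdh*, *Aldh1l1*, *Mthfd2* and *Mthfd1l*, the smallest it can give here, and 0.0159 for *Psat1* and *Shmt2*. *Shmt1*, *Mthfd1* and *Psph* had fold changes above 0 and did not pass the test. In these whole-lens samples fewer cells of a type and less RNA per cell cannot be told apart.

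**Figure D2:**
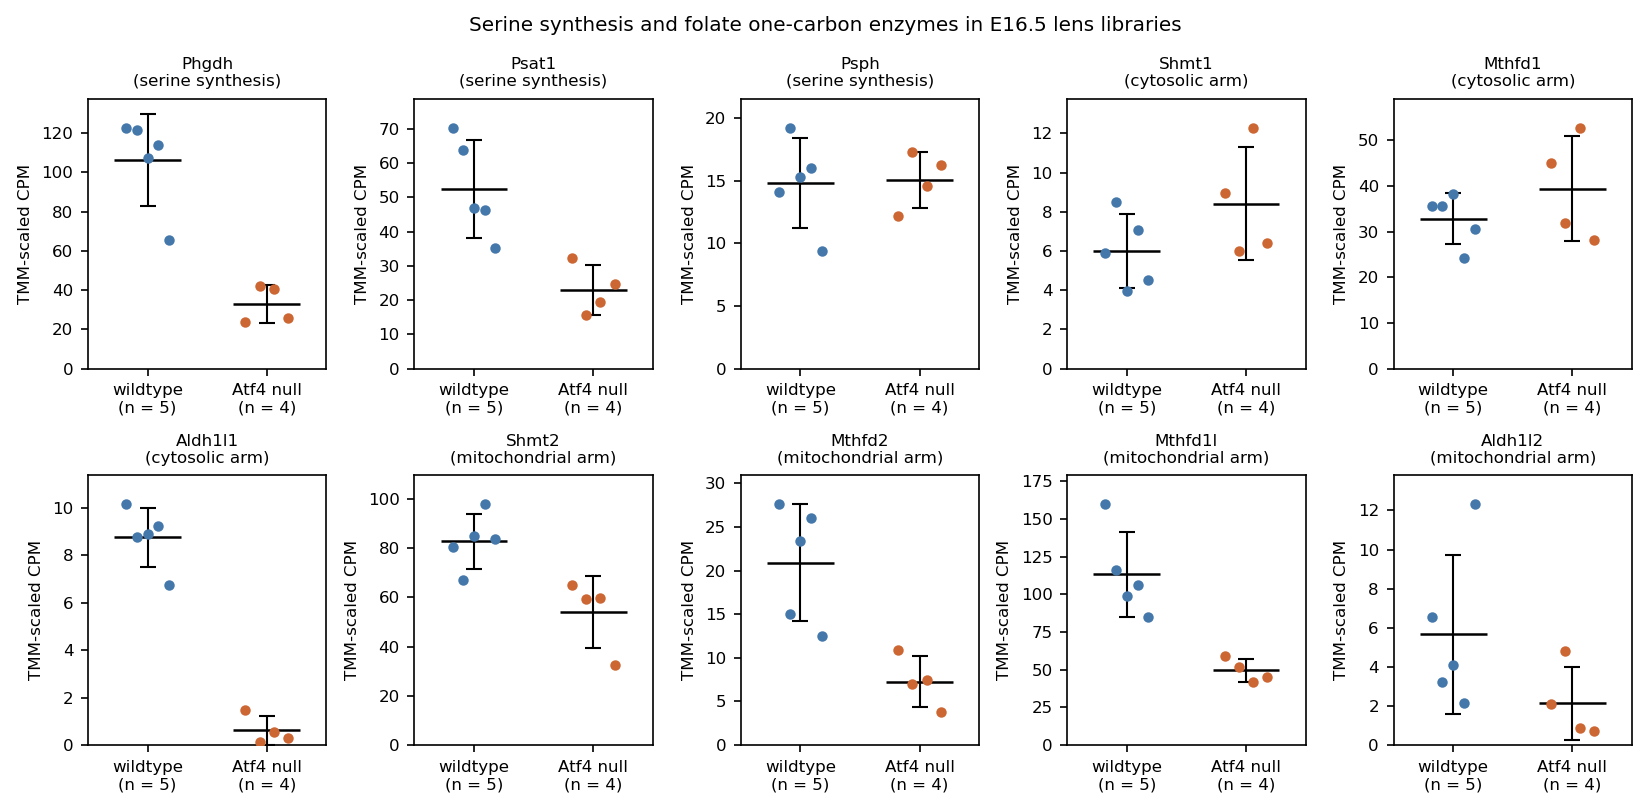
Level of each enzyme transcript in every library (vertical axes, TMM-scaled CPM from 0; points, libraries; bars, mean ± SD; n = 5 wildtype and 4 *Atf4* null). The genotypes do not overlap for *Phgdh*, *Psat1*, *Aldh1l1*, *Shmt2*, *Mthfd2* and *Mthfd1l*, and overlap for *Psph*, *Shmt1*, *Mthfd1* and *Aldh1l2*.

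The first and second enzymes of serine synthesis fell and the last did not pass the test. *Phgdh* (ENSMUSG00000053398, chr3:98220484-98255047, minus strand) encodes the dehydrogenase that commits the glycolytic intermediate to serine. Its level was 123, 122, 108, 114 and 65.8 CPM in wildtype replicates 1 to 5 and 23.8, 42.2, 40.7 and 25.8 CPM in null replicates 1 to 4. The genotypes were separate, with wildtype replicate 5 the lowest of its group and still above each null library. The mean fell from 106 ± 23.5 CPM (SD over 5 wildtype libraries, as for all errors that follow) to 33.1 ± 9.67 CPM (SD over 4 null libraries), 31.2% of wildtype (log2 fold change -1.68, SE 0.22, adjusted p = 0.000653, edgeR). Without wildtype replicate 5, the wildtype mean was 116 ± 7.13 CPM and the log2 fold change -1.81. No read was counted on its pseudogene *Phgdh-ps1* in any library.

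*Psat1* (ENSMUSG00000024640, chr19:15882039-15924701, minus strand) encodes the aminotransferase of the second step, which takes its nitrogen from glutamate. It stood at 70.4, 63.9, 46.9, 46.2 and 35.1 CPM in the wildtype and at 32.4, 15.6, 19.3 and 24.8 CPM in the null libraries. The highest null library lay just below wildtype replicate 5, so the genotypes were separate by a narrow margin. The mean fell from 52.5 ± 14.3 to 23.0 ± 7.30 CPM, with a log2 fold change of -1.19 (SE 0.25, adjusted p = 0.0126, edgeR). That p stayed below the threshold in all 17 alternatives, at most at 0.0483.

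*Psph* (ENSMUSG00000029446, chr5:129841925-129864513, minus strand) encodes the phosphatase that releases free serine. Its wildtype values were 14.1, 19.3, 15.3, 16.1 and 9.42 CPM, and its null values were 12.2, 17.3, 14.6 and 16.3 CPM. Every null library lay within the wildtype range. Its log2 fold change was 0.02 with a 95% interval of -0.50 to 0.54 (adjusted p = 0.975, edgeR). An interval of this width leaves out changes of the size measured for *Phgdh* and *Psat1*. It is the least abundant of the 3, and 465 bases of its exons overlap those of *Cct6a* on the opposite strand (-0.14, adjusted p = 0.650).

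In the cytosolic arm only *Aldh1l1* passed the test, and it had the lowest fold change of the 10 enzymes. *Aldh1l1* (ENSMUSG00000030088, chr6:90463409-90577185, plus strand), the formyl-folate dehydrogenase best known from liver and astrocytes, was at 10.1, 8.76, 8.89, 9.24 and 6.75 CPM in wildtype lenses. It was at 1.5, 0.120, 0.548 and 0.291 CPM in null lenses, where it rested on 15, 1, 5 and 2 counts against 63 to 79 in wildtype. The highest null library was thus well below the lowest wildtype library. Its mean was 8.76 ± 1.25 CPM in wildtype and 0.614 ± 0.613 CPM in null lenses, 7.01% of wildtype, with a log2 fold change of -3.76 (SE 0.60, 95% interval -5.04 to -2.47, adjusted p = 0.00226, edgeR). In null lenses the size of the fall rests on these few counts. Left out in turn, single libraries moved it between -4.68 and -3.43.

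*Shmt1* and *Mthfd1* had higher means in null lenses, overlapped between genotypes and did not pass the test. *Shmt1* (ENSMUSG00000020534, chr11:60661185-60708167, minus strand) stood at 5.91, 8.52, 3.95, 7.09 and 4.50 CPM in wildtype and at 8.97, 6.0, 12.3 and 6.41 CPM in null lenses. Only null replicates 1 and 3 exceeded the wildtype range. A log2 fold change of 0.49 was fitted (95% interval -0.28 to 1.27, adjusted p = 0.514, edgeR). Its exons share 346 bases with *Smcr8* on the opposite strand, which was higher in null lenses by 0.62 on the log2 scale (adjusted p = 0.0398). The strand setting of the counting is not given in the sources used here, and the part of *Smcr8* reads in the value was not tested.

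*Mthfd1* (ENSMUSG00000021048, chr12:76301984-76366588, plus strand) encodes the trifunctional enzyme that interconverts the folate-bound carbon units of the cytosol. It was at 35.6, 35.5, 38.3, 24.3 and 30.6 CPM in wildtype and at 45.0, 31.8, 52.7 and 28.2 CPM in null lenses. Null replicates 1 and 3 were again the high libraries, and replicates 2 and 4 lay inside the wildtype range. Its fitted log2 fold change was 0.26 (95% interval -0.19 to 0.72, adjusted p = 0.557, edgeR). The interval of *Mthfd1* leaves out a fall of the size seen in *Mthfd2* or *Mthfd1l*, and that of *Shmt1* does too.

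All 4 transcripts of the mitochondrial arm had log2 fold changes below 0, and 2 of them passed the test. *Mthfd1l* (ENSMUSG00000040675, chr10:3922870-4117081, plus strand), which makes the formate that leaves mitochondria, was at 160, 116, 99.2, 106 and 85.2 CPM in wildtype. In null lenses it was at 59.1, 51.6, 41.8 and 45.4 CPM, each below the lowest wildtype library. The mean fell from 113 ± 28.3 to 49.5 ± 7.59 CPM (log2 fold change -1.19, SE 0.18, adjusted p = 0.00157, edgeR).

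*Mthfd2* (ENSMUSG00000005667, chr6:83282673-83302890, minus strand), the dehydrogenase and cyclohydrolase typical of embryonic and proliferating cells, was at 27.6, 15.1, 23.3, 26.1 and 12.5 CPM in wildtype. Its null values were 10.9, 6.96, 7.46 and 3.79 CPM. Wildtype replicate 5 lay close above null replicate 1, and the genotypes did not overlap. The mean fell from 20.9 ± 6.74 to 7.27 ± 2.90 CPM (log2 fold change -1.51, SE 0.33, adjusted p = 0.0171, edgeR). Without null replicate 2 the log2 fold change was -1.5 and the adjusted p 0.0542, above the threshold.

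*Shmt2* (ENSMUSG00000025403, chr10:127352266-127358323, minus strand), the entry enzyme of the arm, stood at 80.5, 66.9, 85.0, 97.8 and 83.6 CPM in wildtype and at 64.9, 59.3, 59.9 and 32.3 CPM in null lenses. The genotypes were separate by a narrow margin between null replicate 1 and wildtype replicate 2, and null replicate 4 was lower than the rest. That library, also the lowest for *Mthfd2*, had 453 CPM of S phase and mitosis markers against 915 to 1442 in the other null libraries, and 448 CPM of lens epithelium markers against 593 to 617. Their part in its values was not tested, and without it the log2 fold change of *Shmt2* was -0.43. The means were 82.8 ± 11.1 and 54.1 ± 14.7 CPM, or 65.3% of wildtype. The log2 fold change was -0.61 (SE 0.19, 95% interval -1.02 to -0.21), and its adjusted p of 0.0804 in edgeR missed the threshold. DESeq2 gave 0.0266, the fit without a low-count filter 0.0342, and the other 15 alternatives 0.0579 to 0.247. Its exons overlap 727 bases of *Ndufa4l2* on the opposite strand, which was at 4.18 CPM in wildtype and 4.27 in null lenses.

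*Aldh1l2* (ENSMUSG00000020256, chr10:83323314-83370005, minus strand), the mitochondrial formyl-folate dehydrogenase, varied widely within both genotypes. It was at 6.55, 3.21, 4.08, 2.15 and 12.3 CPM in wildtype and at 2.09, 4.80, 0.877 and 0.728 CPM in null lenses. Wildtype replicate 5 was the highest and null replicate 2 lay within the wildtype range. The log2 fold change of -1.41 had a 95% interval of -2.86 to 0.05 (adjusted p = 0.273, edgeR), and it was -0.90 without wildtype replicate 5 and -2.19 without null replicate 2. It rested on 17 to 115 counts per wildtype and 5 to 40 per null library, and whether it changed could not be told from these values. The gene shares 1056 exon bases with *Nopchap1* on the opposite strand, at 101 CPM in wildtype and 109 in null lenses, whose part was not tested.

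**Figure D3:**
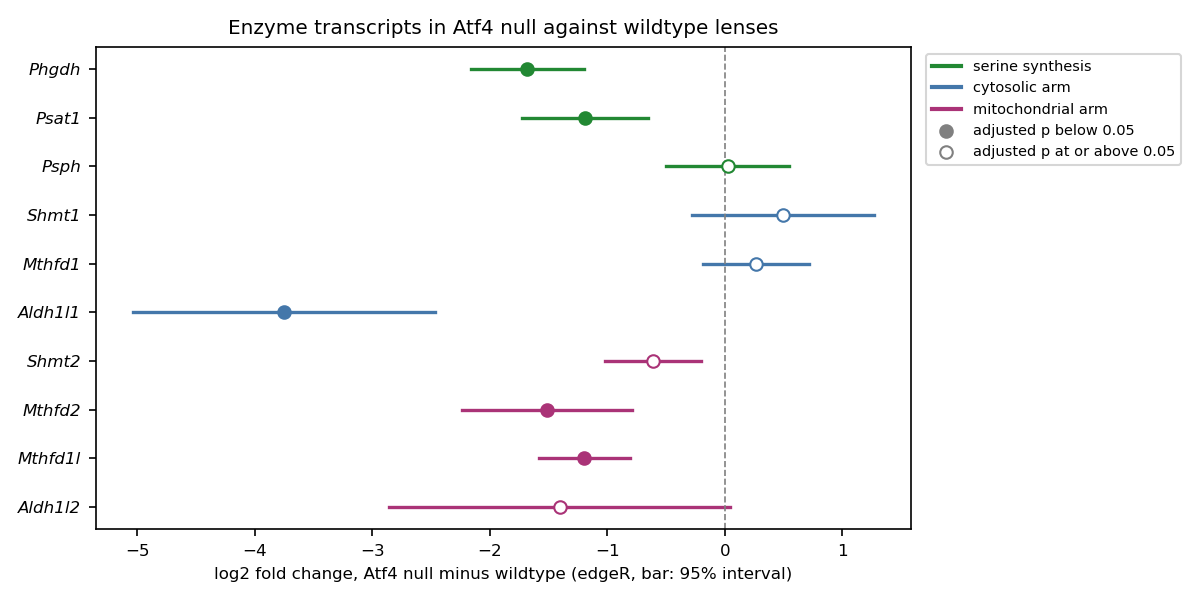
Log2 fold change of each enzyme transcript in *Atf4* null against wildtype lenses (horizontal axis), with its 95% interval from edgeR and filled points for adjusted p below 0.05. The 5 filled points range from -3.76 for *Aldh1l1* to -1.19 for *Psat1* and *Mthfd1l*, and the intervals of *Psph*, *Shmt1*, *Mthfd1* and *Aldh1l2* cross 0.

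The arms were compared within each library by the ratio of a mitochondrial to a cytosolic transcript per exon base, which no scaling between libraries can alter. The 4 pairs were tested by the exact permutation test, two-sided, whose smallest p is 0.0079. *Mthfd2*/*Mthfd1* was 1.04, 0.570, 0.819, 1.44 and 0.550 in wildtype and 0.325, 0.296, 0.191 and 0.183 in null lenses. The ratio was lower in every null library than in any wildtype library. On the log2 scale the means differed by -1.78 (SE 0.34, exact p = 0.0079, 0.0159 adjusted over the 4 pairs).

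*Mthfd1l*/*Mthfd1*, which has the same denominator, was 1.90, 1.38, 1.09, 1.85 and 1.17 in wildtype and 0.556, 0.685, 0.335 and 0.679 in null lenses. The genotypes again did not overlap, with a ratio above 1 in each wildtype and below 1 in each null library. Its place relative to 1 depends on the summed exon lengths used (11620 bases for *Mthfd1l* and 4911 for *Mthfd1*). The difference between genotypes does not. The log2 difference was -1.41 (SE 0.29, exact p = 0.0079, adjusted 0.0159). For both pairs the difference was below 0 with an exact p of at most 0.0286 whichever library was left out.

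*Shmt2*/*Shmt1* was 21.3, 12.3, 33.4, 21.6 and 29.0 in wildtype and 11.4, 15.4, 7.66 and 7.88 in null lenses. Here null replicate 2 overlapped wildtype replicate 2, and the log2 difference was -1.13 (SE 0.34, exact p = 0.0238, adjusted 0.0317). With libraries left out in turn the exact p ran from 0.0179 to 0.0714. The pair of formyl-folate dehydrogenases ran the other way: *Aldh1l2*/*Aldh1l1* was 0.735, 0.421, 0.524, 0.270 and 2.06 in wildtype and 1.57, 30.6, 1.75 and 2.50 in null lenses. Wildtype replicate 5 lay above null replicates 1 and 3. The log2 difference of 2.62 (SE 1.13, exact p = 0.0317, adjusted 0.0317) rests on low counts, with 1 count of *Aldh1l1* in null replicate 2. Without that library the difference was 1.62 (exact p = 0.0893), and the exact p was above 0.05 in 6 of 9 cases with 1 library left out.

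**Figure D4:**
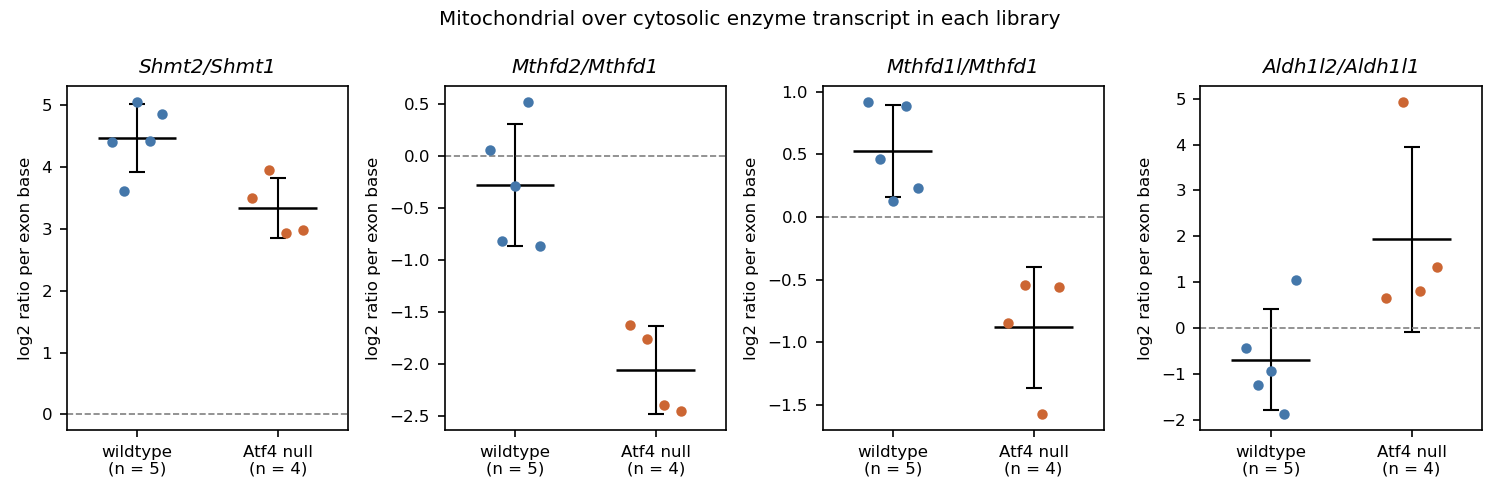
Log2 ratio of the mitochondrial to the cytosolic enzyme transcript per exon base in each library for 4 pairs (vertical axes, log2 ratio; dashed line, equal levels; points, libraries; bars, mean ± SD; n = 5 wildtype and 4 *Atf4* null). The ratios of *Mthfd2* and *Mthfd1l* to *Mthfd1* do not overlap between genotypes, *Shmt2*/*Shmt1* falls from a geometric mean ratio of 22.3 to 10.1 with overlap, and *Aldh1l2*/*Aldh1l1* has a higher mean in null lenses, also with overlap.

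Summed per exon length, as FPKM, the 4 mitochondrial transcripts came to 36.4 ± 4.72 in wildtype and 19.7 ± 4.80 in null lenses, with ranges of 30.8 to 41.8 and 12.9 to 24.1. The 3 cytosolic transcripts came to 8.65 ± 1.14 and 9.40 ± 2.80 FPKM. The mitochondrial share of the sum of both arms was 80.6 ± 3.20% in wildtype (76.3 to 85.0%) and 67.7 ± 5.42% in null lenses (61.5 to 74.3%), without overlap. The 3 serine synthesis transcripts summed to 48.6 ± 10.8 and 17.7 ± 2.45 FPKM. These sums are carried by *Phgdh*, *Shmt2* and *Mthfd1*, the most abundant of each role.

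In level per exon length the wildtype order was *Phgdh* (37.6 FPKM), *Shmt2* (20.1), *Mthfd1l* (9.75), *Psat1* (8.92), *Mthfd1* (6.69), *Mthfd2* (5.71), *Psph* (2.02), *Aldh1l1* (1.03), *Shmt1* (0.925) and *Aldh1l2* (0.754). The ranges over libraries separated only *Shmt2* from *Mthfd1l*, *Mthfd2* from *Psph* and *Psph* from *Aldh1l1* among neighbours in this order. In null lenses *Shmt2* came first (13.2 FPKM), then *Phgdh* (11.7), *Mthfd1* (8.03), *Mthfd1l* (4.26), *Psat1* (3.91), *Psph* (2.05), *Mthfd2* (1.98), *Shmt1* (1.30), *Aldh1l2* (0.283) and *Aldh1l1* (0.0721). There the ranges separated *Mthfd1* from *Mthfd1l*, *Psat1* from *Psph* and *Shmt1* from *Aldh1l2*. In mean level per exon length *Mthfd1* thus moved from below *Mthfd1l* and *Psat1* to above them, and *Aldh1l1* from above *Shmt1* and *Aldh1l2* to last.

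The surrounding pathways were taken from a list of 44 genes in 5 roles, of which 37 passed the filter on low counts. Of these 1 fell and none rose by edgeR, against 3.67% lower and 2.23% higher among all genes tested. Their median log2 fold change was -0.02. At an unadjusted p below 0.05, 3 were lower and 5 higher, against 10.2% and 9.31% of all genes tested. DESeq2 called 2 lower and none higher, and over all 14903 genes 835 lower and 562 higher. The gene that fell was *Slc1a4*, which encodes ASCT1, a plasma membrane carrier of serine and other small neutral amino acids. It stood at 81.5, 48.7, 55.2, 47.3 and 48.6 CPM in wildtype and at 17.0, 23.8, 14.5 and 27.7 CPM in null lenses. The genotypes were separate, and wildtype replicate 1 was the highest library. The mean fell from 56.3 ± 14.4 to 20.7 ± 6.05 CPM (log2 fold change -1.44, SE 0.23, adjusted p = 0.00248, edgeR).

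Of the 11 genes of serine transport and use that were tested, *Slc1a4* was the only one called, with a median log2 fold change of -0.37. The others included the serine racemase *Srr*, which at 0.55 had an unadjusted edgeR p of 0.0227, and the mitochondrial carrier family member *Sfxn2* at -1.07 (unadjusted p = 0.0465), both named after their values were seen. The mitochondrial serine carrier *Sfxn1*, named for its call without 1 library, was at 76.3 ± 18.0 CPM in wildtype and 58.9 ± 4.44 CPM in null lenses (-0.37, adjusted p = 0.265, edgeR). Leaving out wildtype replicate 5 brought *Sfxn1* and *Folr1* past the threshold beside *Slc1a4*.

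None of the 6 tested genes of folate uptake and retention was called, and 1 had an unadjusted p below 0.05. This was *Folr1*, the folate receptor, at 23.4, 31.6, 38.3, 20.3 and 14.3 CPM in wildtype and at 7.48, 18.2, 16 and 12.1 CPM in null lenses. Wildtype replicate 5 lay among the null libraries. Its log2 fold change was -0.93 (SE 0.32, adjusted p = 0.117, edgeR), and DESeq2 gave an adjusted p of 0.0478. The 7 other folate enzymes tested held none called and none with an unadjusted p below 0.05, with a median of -0.01. The lowest p among them was that of *Qdpr*, which regenerates tetrahydrobiopterin (-0.42, adjusted p = 0.351). *Mthfd2l*, named as the mitochondrial relative of *Mthfd2* and after its values were seen, was at 16.3 ± 2.95 CPM in wildtype and 17.4 ± 3.51 CPM in null lenses.

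The 4 genes of the glycine cleavage system, which frees a folate-bound carbon unit from glycine in mitochondria, had a median of 0.00 and none was called. *Gldc*, its decarboxylase, was at 91.6 ± 18.7 CPM in wildtype and 119 ± 20.4 CPM in null lenses (0.38, adjusted p = 0.218, edgeR) and was the 1 with an unadjusted p below 0.05. The 9 tested genes of the methionine cycle and transsulfuration had a median of 0.25, none called, and 3 with an unadjusted p below 0.05, all of them higher in null lenses. Of these, *Ahcyl2*, related to the hydrolase of S-adenosylhomocysteine, was at 49.2 ± 6.06 and 61.6 ± 4.88 CPM (0.32, adjusted p = 0.205, edgeR). DESeq2 called none in these 2 roles or among the other folate enzymes.

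**Figure D5:**
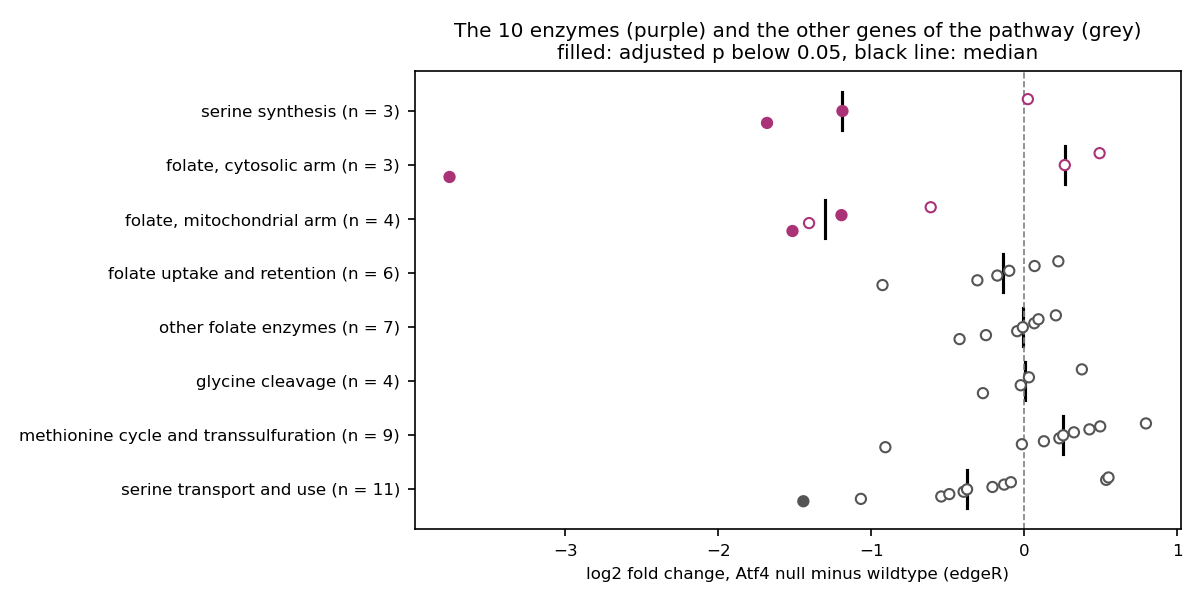
Log2 fold change in *Atf4* null against wildtype lenses (horizontal axis) of the 10 enzymes and of the 37 tested genes of 5 surrounding roles, with filled points for adjusted p below 0.05 in edgeR. Beside the 5 enzymes, *Slc1a4* at -1.44 is the only filled point, and the medians of the surrounding roles lie between -0.37 and 0.25.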

How the data were processed

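The deposited values were counts per gene. As the study's methods and the submitters' processing notes state, the authors trimmed reads with Trim Galore, removed ribosomal RNA reads and aligned to GRCm39 with HISAT2, and counted with HTSeq. Tool versions and the strand setting are not given in the sources used here. The labels and the methods name different RNA extraction kits. HTSeq's 5 summary entries (44.6 to 47.7% of reads) were left out. Wildtype sample titles name other wildtype libraries than their count tables do, so wildtype numbers are uncertain and genotypes are not.

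Genes were tested with edgeR 4.0.16 in R 4.3.3 (TMM factors, filterByExpr, estimateDisp, glmQLFit, glmQLFTest, no covariate), with Benjamini-Hochberg adjustment over 14903 genes. P-values measure the spread between single embryos. FPKM divide TMM-scaled CPM by summed exon length in GENCODE vM39, which is of the files' build. Ratios had 0.5 added to each count and were tested with scipy 1.17.1 in Python 3.11.15. Mean log2 values of single members had 0.1 CPM added. Promoters came from RefSeq (GRCm38.p6), the wider windows and all coordinates from GRCm39. The procedure was tested on simulated data.

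All 10 members are named. Of other pathway genes, up to 3 with the lowest adjusted p below 0.05 per role were named, or the 1 with the lowest p. *Sfxn1*, *Sfxn2*, *Srr* and *Mthfd2l* were named outside this rule, after their values were seen. The members and lists were chosen with earlier results of these data known. The alternatives were DESeq2 1.42.0, exactTest, library size alone, TMM factors without crystallins, no filter, a minimum of 10 counts in every library, a robust fit, the replicate number as a block, other counts added to ratios, TGATGCAA, and each library left out in turn.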

Additional observations from a re-analysis of the deposited data

Results flagged for a closer look

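Among 28 sets of values (10 enzymes and 4 ratios in each genotype), 2 held a library far from the rest of its group. At the 5% level used, chance marks about 5% of such sets. *Phgdh* in wildtype replicate 5 was at 65.8 CPM, while the other wildtype libraries ran from 108 to 123 CPM. This is the library with 21537 CPM of skeletal muscle and mesenchyme markers, whose part in the value was not tested. The log2 ratio of *Aldh1l2* to *Aldh1l1* in null replicate 2 was 4.94, and those of the other null libraries were 0.65, 0.81 and 1.32. It rests on 40 counts of *Aldh1l2* and 1 of *Aldh1l1*.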

How the results depend on the processing

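The number of enzymes that fell was 5. It was 6 with DESeq2 or with no filter, which add *Shmt2*, and 4 without null replicate 2, which loses *Mthfd2*, or with at least 10 counts in every library, under which *Aldh1l1* and *Aldh1l2* were not tested. None rose in any of the 17 alternatives. The *Psph* log2 fold change of 0.02 turned to -0.11 with the replicate block and to between -0.10 and 0.13 with libraries left out in turn (-0.05 without null replicate 2, -0.02 without null replicate 4). Among the surrounding genes the 1 call became 2 with DESeq2 and 2 with the replicate block, both adding *Folr1*, and 1 to 3 with libraries left out. *Folr1* was at -0.92 (adjusted p = 0.0478) with DESeq2, -1.11 (0.0233) with the block and -1.07 (0.0291) without wildtype replicate 5. The cause of these moves was not tested. The differences of the ratios with libraries left out ran from -1.35 to -0.99 for *Shmt2*/*Shmt1* and from 1.62 to 3.06 for *Aldh1l2*/*Aldh1l1*, with an exact p above 0.05 in 7 and 6 of 9 cases. The window of 1000 bases, chosen after seeing the data, held TGATGNAA in 5 and TGATGCAA in 4 enzymes against 0 in the RefSeq promoters.

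Same-numbered libraries of the genotypes did not deviate together (correlations of -0.13 to 0.01, 0 of 4 highest with its own number), so the numbers are not shown to pair the embryos. With the replicate block 852 genes were called, against 880 without, and 5 enzymes fell in both. Over all genes, DESeq2 called 1397, and libraries left out gave 527 to 1207. Scaling by library size alone moved the median log2 fold change of all genes to 0.12 and called 790 genes higher and 439 lower, against 333 and 547. *Aldh1l1* and *Aldh1l2* rested on 1 to 40 counts per null library, where single counts weigh most.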
